A study of Bos taurus with 8 samples.

Results

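The enzymes that make and use ketone bodies were followed at 7 probes of 4 genes, BDH1, OXCT1, ACAT1 and AACS, in mammary gland tissue of 8 lactating Holstein Friesian cows. The probes were those whose gene name or RefSeq accession in the scanner files is 1 of these genes. They were 7 of the 43653 probes on a bovine array of 2 colours, and each of the 7 passed the filter on dim probes that kept 29867. BDH1 had 1 such probe and each of the other genes had 2. Another 2 probes carry a description that names a member enzyme but no member gene name, 1 for BDH1 and 1 for ACAT1. They lie outside the rule and are given beside the members. The 4 genes were selected on the log2 ratios of high over low yield found earlier in these same arrays, so their values in that contrast are a description and support nothing.

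The 4 cows of high milk yield and the 4 of low yield averaged 11097 and 6956 kg of milk per lactation in their groups. All were healthy and lactating, and no treatment is named. A high-yield cow shared each array with a low-yield cow of equal lactation, and a pair of cows was measured on 2 arrays that exchanged the dyes. Lactation II (pairs 1 and 2) was on slide 1 and lactation IV (pairs 3 and 4) on slide 2, each with its own scan, so lactation and slide cannot be told apart. Whole tissue from part of the gland gave the RNA, so fewer cells of a type and less RNA per cell cannot be told apart.

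Ketone bodies are small fuels, chiefly acetoacetate and beta-hydroxybutyrate. In cattle they come from the liver and, through butyrate, from the wall of the rumen, and the lactating udder takes up beta-hydroxybutyrate from the blood as fuel and as a building block of milk fat. BDH1 is the mitochondrial dehydrogenase that converts beta-hydroxybutyrate and acetoacetate into each other. OXCT1 activates acetoacetate with the coenzyme A of succinyl-CoA, the step that commits a tissue to burning ketone bodies, and ACAT1 is the mitochondrial thiolase that splits acetoacetyl-CoA into acetyl-CoA for the citric acid cycle. AACS activates acetoacetate in the cytosol, where the product feeds fatty acid and sterol synthesis.

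Each probe is a 60-base DNA, and the stretches below show which piece of each transcript was read. Of OXCT1 and ACAT1 the probe nearer the transcript's start is given whole, and all others by their last 30 bases, all 5′ to 3′ as the deposited scanner files hold them. Capitals mark AATAAA, the polyadenylation signal motif.
BDH1 A_73_P050306: ttgattttatacaaagattttaggtagata
OXCT1 A_73_P167292: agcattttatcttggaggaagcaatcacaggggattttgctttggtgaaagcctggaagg
OXCT1 A_73_P042801: aacaaaccaAATAAAtacctgtgctttgcc
ACAT1 A_73_P299446: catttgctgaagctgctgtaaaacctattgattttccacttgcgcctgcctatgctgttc
ACAT1 A_73_P049386: cctgtatcgaaacaatttatttaaattttg
AACS A_73_P376626: cttttgagccgagctggctagcatgtccct
AACS A_73_100667: ataaaaacagggcagattgctacgaggcat

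The motif AATAAA, searched on the strand of the probe, was present in 1 of the 7 whole probes, OXCT1 A_73_P042801, and in 4083 of the 43653 probes of the array, or 9.35%. On build HGSC Btau_3.1 the BDH1 probe lies at chr1:73086624-73086683 on the minus strand. The OXCT1 probes lie on the plus strand of chromosome 20, A_73_P167292 at chr20:34833520-34833579 and A_73_P042801 at chr20:34953927-34953986. ACAT1 A_73_P049386 lies at chr15:16974130-16974189 on the plus strand, and the files give no position for ACAT1 A_73_P299446. The AACS probes lie on the minus strand of chromosome 17, A_73_P376626 at chr17:53552014-53552073 and A_73_100667 at chr17:53550971-53551030. By the transcript positions in the files, A_73_P167292 starts at base 631 and A_73_P042801 at base 2306 of the OXCT1 transcript, so they read places far apart on it. The corresponding starts are 948 and 1350 for ACAT1 and 1982 and 3025 for AACS, and 1494 for BDH1. No exon annotation of that build was used here.

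The number of probes well above background ranged from 22027 to 42482 over the channels, and 0 spots were saturated. The low-yield cow of pair 1 stood apart from the others in its milk protein genes. The summed level of 7 secretory epithelium markers, all kept, was 15.49 in that cow, against 20.47 to 20.73 for the remaining low-yield cows and 19.50 to 22.26 for the high-yield cows (levels are log2 intensity, rebuilt for each cow from scaled mean intensity and ratio, so they are not measured intensities). LALBA, the milk protein alpha-lactalbumin, had a level of 9.76 there against 16.15 to 19.63 in the other cows. The summed level of 6 luminal epithelium markers was 16.89 there, within the 16.43 to 17.02 of the high-yield cows. It lay above the 15.94 to 16.18 of the remaining low-yield cows. Single luminal markers went both ways: KRT8, KRT18, EPCAM and CDH1 were highest of all cows there, ELF5 was lowest, and KRT19 lay between. Values that move most with pair 1 are therefore given with and without it.

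BDH1 had the widest spread of the member genes. The high-yield cows of pairs 1 to 4 had levels of 10.14, 9.09, 9.18 and 7.59. The low-yield cows had levels of 6.01, 9.92, 10.36 and 9.85. The lowest of all was the low-yield cow of pair 1 and the next lowest was the high-yield cow of pair 4, and the yield groups overlapped. The 8 cows spanned 4.35 log2 units, and 1.76% of all kept probes spanned more than 4. The SD over cows stood at the 98.8 percentile of the kept probes.

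**Figure D1:**
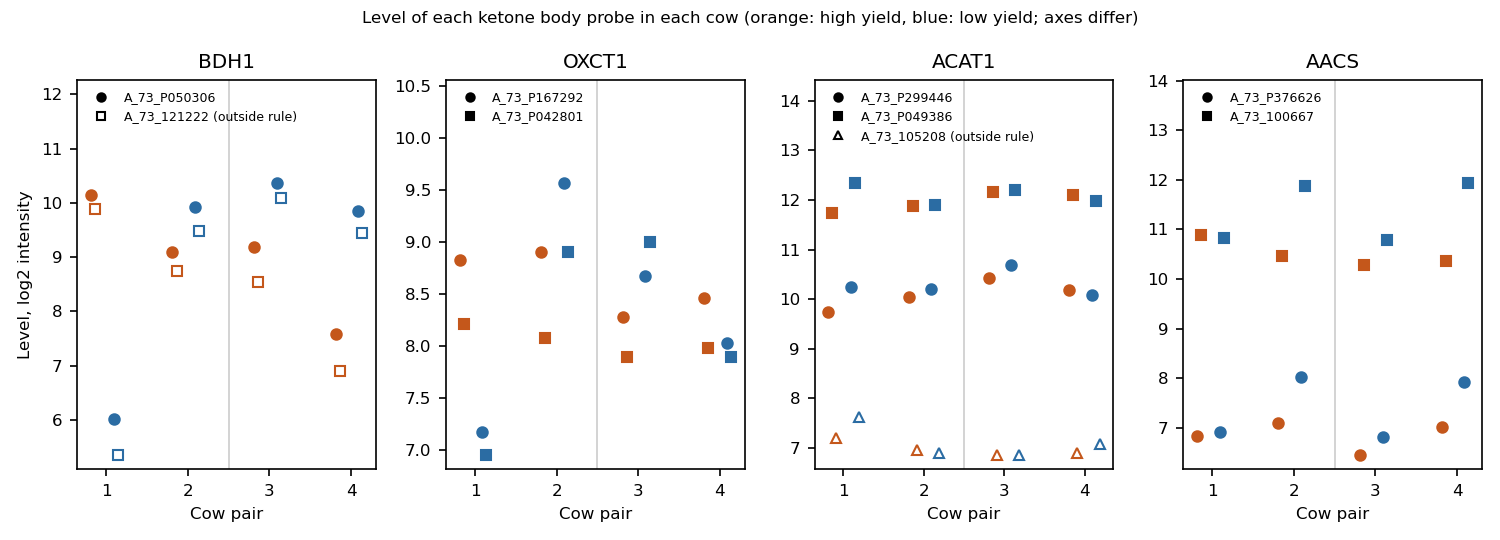
Level of each probe (y axis, log2 intensity, a different range in each panel) in the 8 cows, by cow pair (x axis), for BDH1, OXCT1, ACAT1 and AACS. Orange points are high-yield cows, blue points low-yield cows, point shape marks the probe, open points are the probes outside the rule, and the grey line parts lactation II from lactation IV. The low-yield cow of pair 1 has the lowest level of BDH1 (6.01) and of both OXCT1 probes, while ACAT1 spans under 1 log2 unit at each probe.

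The log2 ratio of high over low yield at BDH1 in pairs 1 to 4 was 4.13, -0.83, -1.18 and -2.26. BDH1 was thus 17.5-fold higher in the high-yield cow of pair 1, and 1.78-fold, 2.26-fold and 4.79-fold lower in the high-yield cows of pairs 2, 3 and 4. The mean was -0.04 ± 2.84 (SD, n = 4 pairs), with an adjusted p of 0.996 in the limma fit over all kept probes. That fit called 0 of 29867 probes (0%) at an adjusted p under 0.05, while 1926 probes (6.45%) had an unadjusted p under 0.05. Higher in pair 1 and lower in pairs 2, 3 and 4 was the pattern of 9.98% of the kept probes.

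Without pair 1 the BDH1 mean was -1.42 ± 0.75 (SD, n = 3 pairs), 2.68-fold lower in high-yield cows, with a limma adjusted p of 0.386. In those 3 pairs 20.2% of the kept probes were lower in every high-yield cow, 0 of 29867 (0%) passed the adjusted test and 12.1% had an unadjusted p under 0.05. Without pair 4 the mean was 0.71, without pair 3 0.35 and without pair 2 0.23, so the sign of the mean changed with the pairs counted. The low-yield cows other than that of pair 1 had a BDH1 level of 10.04 ± 0.28 (SD, n = 3), and the 4 high-yield cows 8.999 ± 1.053.

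The probe of BDH1 outside the rule, A_73_121222 at chr1:73086419-73086478, lies next to the member probe on the same strand. Its log2 ratios were 4.55, -0.73, -1.53 and -2.53 in pairs 1 to 4, the same signs as at the member probe. Over the 8 cows the levels of these probes correlated at r = 0.998, as a description of probes measured on the same arrays. Each pair also had the same sign on both of its arrays. In pair 1 the ratio was 3.82 with the high-yield cow in Cy5 and 4.44 with it in Cy3, and in pair 4 it was -2.41 and -2.11. The mean spot intensity in pair 1 was 1871 for the high-yield and 135.9 for the low-yield cow on the first array. It was 349.7 and 205.0 on the array with exchanged dyes, where the spot's local background was 31 and 36. These raw intensities lay much closer together than the ratio of 4.44, which is after background and loess correction. On that array 22027 probes were well above background for the high-yield cow and 34844 for the low-yield cow. The part of the correction in the ratio of 4.44 was not tested.

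Within lactation II the BDH1 effect was 1.65 and within lactation IV it was -1.72 (log2, 2 pairs each). The difference, lactation IV minus lactation II, was -3.37 with an SE of 1.73 and a limma adjusted p of 0.655, and 0 of 29867 probes (0%) passed that test, with 7.66% at an unadjusted p under 0.05. Pair 1 carries this difference as well, since it was -0.89 without that pair. The other pair of lactation II had the same sign as the pairs of lactation IV.

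**Figure D2:**
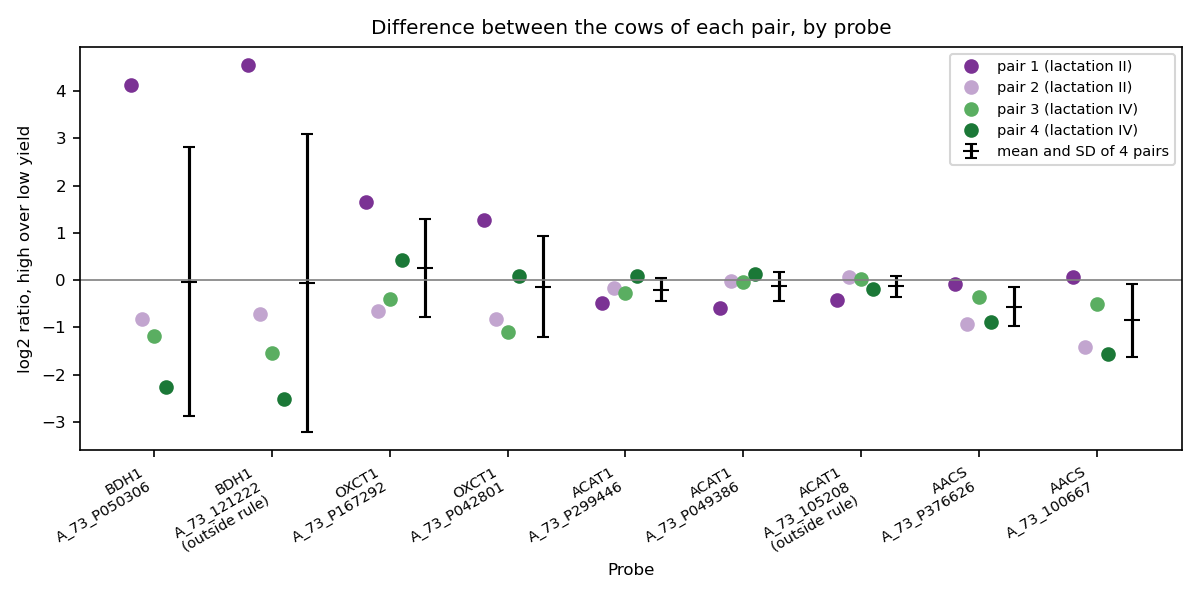
Log2 ratio of high over low yield (y axis) for each probe (x axis), with 1 point per cow pair and the mean and SD of the 4 pairs in black. Pair 1 stands at 4.13 for BDH1 and at 1.66 and 1.27 for the OXCT1 probes, above the other pairs at each, while the 4 pairs of AACS lie near or below 0.

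OXCT1, the enzyme that activates acetoacetate for oxidation, also had its lowest level in pair 1's cow of low yield. At A_73_P167292 the high-yield cows had levels of 8.83, 8.91, 8.28 and 8.46 in pairs 1 to 4. The low-yield cows had levels of 7.17, 9.56, 8.67 and 8.03. At A_73_P042801 the high-yield cows had levels of 8.21, 8.08, 7.90 and 7.98, an SD of 0.14. The high-yield cows were thus close together at this probe, within the much wider range of the low-yield cows, which had 6.95, 8.91, 9.003 and 7.89. The groups overlapped at both probes. That cow was the lowest of the 8 at 24.0% of all kept probes, and at 3 of the 7 member probes.

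The log2 ratios of high over low yield at A_73_P167292 were 1.66, -0.66, -0.39 and 0.43 in pairs 1 to 4, a mean of 0.26 ± 1.04 (SD, n = 4 pairs, limma adjusted p = 0.872). At A_73_P042801 they were 1.27, -0.83, -1.11 and 0.09, a mean of -0.14 ± 1.07 (limma adjusted p = 0.937). The probes had the same sign in every pair, and the pairs had both signs in equal number. Without pair 1 the means were -0.20 and -0.61 (n = 3 pairs), with limma adjusted p-values of 0.726 and 0.449, so the first turned its direction. The levels of the OXCT1 probes correlated at r = 0.856 over the 8 cows and at 0.680 over the 7 without the low-yield cow of pair 1.

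The levels of BDH1 and OXCT1 were compared with each other and set beside the marker genes. BDH1 and OXCT1 A_73_P042801 correlated at r = 0.814 over the 8 cows and at 0.553 without the low-yield cow of pair 1, and BDH1 and OXCT1 A_73_P167292 at 0.706 and 0.241. The summed level of the 5 kept adipocyte markers of 6 was 11.54 in that cow, against 15.57 to 16.53 for the remaining low-yield cows and 14.37 to 16.03 for the high-yield cows. Among them ADIPOQ, which defines adipocytes, did not pass the filter, PLIN1 was between 6.33 and 6.66 in all cows, and the sum followed FABP4 and CIDEA. CIDEA had a level of 8.53 in that cow and 12.17 to 15.90 in the others. The part of the secretory and adipocyte markers in the BDH1 and OXCT1 values was not tested.

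**Figure D3:**
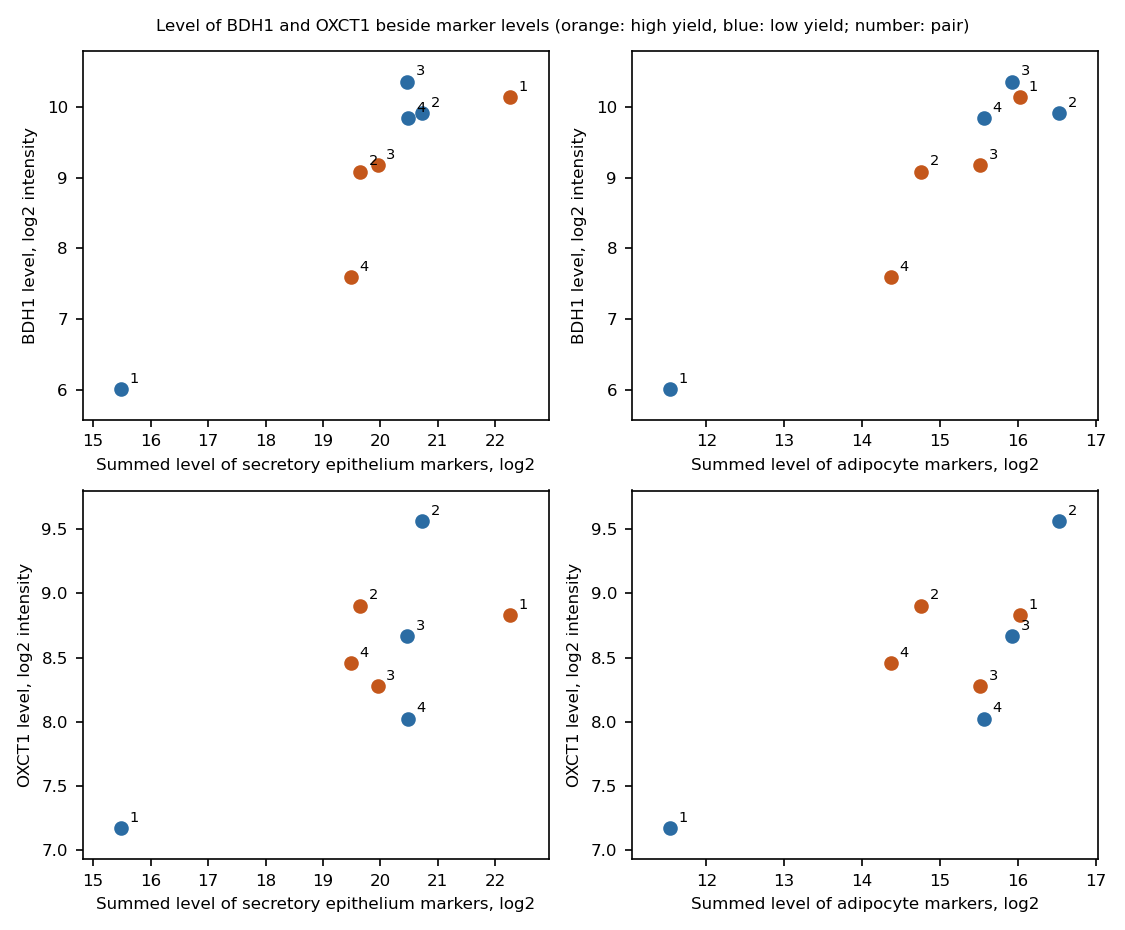
Level of BDH1 (upper panels) and of OXCT1 probe A_73_P167292 (lower panels) on the y axis, in log2 intensity, against the log2 summed level of secretory epithelium markers (left) and adipocyte markers (right) on the x axis. Each point is a cow, orange for high and blue for low yield, numbered by pair. The low-yield cow of pair 1 is lowest on every axis, at 15.49 for the secretory and 11.54 for the adipocyte markers.

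ACAT1, the thiolase that yields acetyl-CoA, varied least among the members. At A_73_P049386 the high-yield cows had levels of 11.75, 11.88, 12.17 and 12.11 and the low-yield cows 12.33, 11.90, 12.21 and 11.98. The span over the 8 cows was 0.59, and its SD stood at the 14.3 percentile of the kept probes. At A_73_P299446 the high-yield cows had levels of 9.74, 10.03, 10.42 and 10.18 and the low-yield cows 10.24, 10.20, 10.68 and 10.09. The span at this probe was 0.94, and its SD stood at the 35.6 percentile. The yield groups overlapped at both probes, and the low-yield cow of pair 1 was the highest at A_73_P049386, in contrast to its place at BDH1 and OXCT1.

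The log2 ratios of high over low yield were -0.49, -0.16, -0.27 and 0.09 in pairs 1 to 4 at A_73_P299446, a mean of -0.21 ± 0.24 (SD, n = 4 pairs, limma adjusted p = 0.742), and without pair 1 the mean was -0.11. At A_73_P049386 they were -0.59, -0.03, -0.04 and 0.12, a mean of -0.13 ± 0.31 (limma adjusted p = 0.832), and without pair 1 this mean was 0.02. The signs matched between the probes in every pair, and both had 3 pairs lower and 1 higher. At these probes 5 of 8 comparisons of a pair's arrays had opposite signs, against 2 of 8 at AACS, 1 of 8 at OXCT1 and 0 of 4 at BDH1. Each of the 5 was higher with the high-yield cow in Cy5 and lower with it in Cy3. At A_73_P299446 in pair 2 the ratio was 0.40 in the first orientation and -0.73 in the other. With the Cy5 arrays alone the means were 0.17 and 0.09, so the sign of the ACAT1 mean differed with the dye orientation. The dim probe outside the rule, A_73_105208, had ratios of -0.42, 0.057, 0.015 and -0.18 in pairs 1 to 4, a mean of -0.13. In pairs 2, 3 and 4 its sign was opposite to that of both member probes, though its own arrays disagreed in sign in pairs 2 and 3. Its levels correlated with those of A_73_P299446 and A_73_P049386 at r = -0.333 and 0.253 over all 8 animals. With pair 1's cow of low yield left out, these values were -0.840 and -0.779.

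**Figure D4:**
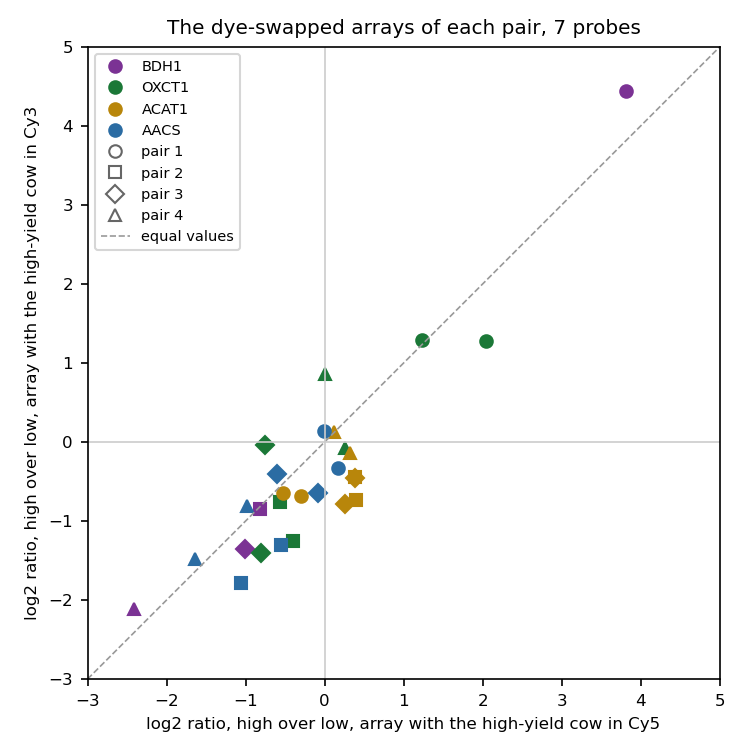
Log2 ratio of high over low yield on the array with the high-yield cow in Cy5 (x axis) against that on the array with it in Cy3 (y axis), for the 7 probes and 4 pairs. Colour marks the gene, shape the pair, and the dashed line equal values. BDH1 and OXCT1 in pair 1 lie at the upper right, and 5 ACAT1 points lie right of 0 on the x axis and below 0 on the y axis.

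Over the 7 probes and 4 pairs, 20 of 28 comparisons had the same sign on both arrays and 8 the opposite sign. The share of same signs over all kept probes was not counted. Over those probes the ratios of a pair's arrays correlated at r = 0.753, 0.294, 0.668 and 0.260 in pairs 1 to 4, so agreement was weak in pairs 2 and 4. The gap between the arrays of a pair had a median of 0.48 and reached 1.13 (log2). At BDH1 the gap lay between 0.02 and 0.62, in each pair smaller than the ratio itself.

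AACS, the cytosolic enzyme that turns acetoacetate toward lipid synthesis, was the member with the most even direction. At A_73_100667 the high-yield cows had levels of 10.89, 10.46, 10.29 and 10.37 in pairs 1 to 4. The low-yield cows had levels of 10.83, 11.88, 10.79 and 11.93. The low-yield cows of pairs 2 and 4 stood above the other 6 cows, among which the groups mixed. At A_73_P376626, a dimmer probe, the high-yield cows had levels of 6.84, 7.09, 6.44 and 7.02. The low-yield cows had levels of 6.92, 8.02, 6.81 and 7.91, again highest in pairs 2 and 4. This probe was well above background in 6 of 8 high-yield channels and 7 of 8 low-yield channels.

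The log2 ratios of high over low yield at A_73_100667 were 0.07, -1.42, -0.50 and -1.56 in pairs 1 to 4. Their mean was -0.85 ± 0.77 (SD, n = 4 pairs), 1.81-fold lower in high-yield cows, with an unadjusted p of 0.0415 and an adjusted p of 0.730 (limma). At A_73_P376626 the ratios were -0.08, -0.92, -0.37 and -0.89. Their mean was -0.57 ± 0.41, with an unadjusted p of 0.0302 and an adjusted p of 0.730 (limma). This was the only member probe lower in 4 of 4 pairs, where 10.3% of the kept probes were, and 0 of the 7 were higher in 4 of 4, where 8.21% of the kept probes were. None of the 7 had yield groups that did not overlap, whereas 2.26% of the kept probes had every high-yield cow below every low-yield cow and 0.877% the reverse.

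Pairs 2 and 4, in lactations II and IV, had the larger AACS differences, and pairs 1 and 3 the smaller. Between lactations the AACS effect differed by -0.35 with an SE of 0.66 at A_73_100667 and by -0.13 with an SE of 0.41 at A_73_P376626, with limma adjusted p-values of 0.892 and 0.940. Without pair 1 the mean at A_73_100667 was -1.16 ± 0.58 (SD, n = 3 pairs, limma adjusted p = 0.386), and without pair 4 it was -0.62. The AACS probes correlated at r = 0.899 over the 8 cows. Their array ratios differed in sign only in pair 1, with -0.01 and 0.14 at A_73_100667. At A_73_P376626 they were 0.17 and -0.33 in that pair, so the sign that makes it lower in 4 of 4 pairs comes from a mean of arrays with opposite signs, and the high-yield channel of the array at -0.33 was not well above background.

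Red blood cell markers had higher summed levels in the high-yield cows, and 0 of the 4 kept ones passed the adjusted limma test (adjusted p = 0.730 for each), with 2 of them, HBA and HBM, at an unadjusted p under 0.05. The summed level of the 4 kept erythrocyte markers of 5 was 9.58 to 12.63 in high-yield and 8.50 to 9.54 in low-yield cows. ALAS2 did not pass the filter. These sums parted by a narrow margin, and at each of the 4 markers taken alone the yield groups overlapped. HBA had a level of 8.897 in the high-yield cow of pair 1 and 8.902 in the low-yield cow of pair 4. All 4 kept markers had a positive ratio in 4 of 4 pairs, as 9.63% of all genes had. Their part in the AACS values was not tested.

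Counted by the brightest probe of each gene, 3 of the 4 members had a mean below 0 and 1 above, with a median of -0.08, against 54.9% of 12608 genes with a mean above 0 and a median of 0.03. By pair the members' median was 0.86, -0.74, -0.45 and -0.72.

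The rest of the ketone body pathway was read from a list of 24 genes for synthesis, transport, sensing and acetate activation. Of these 23 were on the array by name, 20 were tested and 0 passed the adjusted limma test. By sign 12 means were above 0 and 8 below, with a median of 0.06 against 0.03 over all genes, and of -0.04 without pair 1. In 4 of 4 pairs 4 of the 20 were higher, where 9.63% of all genes were, and 0 were lower, where 7.65% were. The transporters SLC16A6 and SLC5A8 and the hormone FGF21 did not pass the filter.

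Among the genes higher in 4 of 4 pairs were HMGCLL1, HCAR1, a lactate receptor, and FFAR3, a receptor of short-chain fatty acids. Their means were 0.14, 0.29 and 0.36, and each missed the adjusted limma test. Their levels over the cows were low, 6.22 to 6.81, 6.62 to 7.38 and 6.92 to 8.42. The smallest pair ratios were 0.04, 0.09 and 0.002, so the sign in such a pair is uncertain. Among the larger means were those of SLC5A12, a carrier of lactate and other monocarboxylates, at 0.87 ± 2.55, and ACSS1, the mitochondrial enzyme that activates acetate, at 0.49 ± 0.83 (SD, n = 4 pairs). SLC5A12 had its large ratio in pair 3 alone, at 4.46, with -1.26 in pair 1, and its mean was -0.33 without pair 3. The mean of ACSS1 was 0.19 without pair 1, that of HCAR1 0.16 without pair 1, and that of FFAR3 0.15 without pair 3.

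The sign pattern of BDH1, higher in pair 1 and lower in pairs 2, 3 and 4, was found in 4 of the 20 genes, which were named after their values were seen, and in 9.98% of all kept probes. The share over genes was not counted, so the share over probes is not a like comparison. SLC16A1, the carrier of ketone bodies and lactate across membranes, had ratios of 2.63, -1.05, -0.46 and -1.46. Of its other kept probes, A_73_P100561 had the same signs, while A_73_P100531 had 0.98, -0.74, 0.04 and -1.54 and so lacked the pattern in pair 3. ACSS2, which activates acetate in the cytosol, had ratios of 3.82, -1.21, -1.21 and -1.33, and its other kept probe had 0.80, -1.10, -0.63 and -0.47. HMGCS1, of sterol synthesis, had ratios of 1.71, -1.13, -0.84 and -0.59, and SIRT3, a mitochondrial deacetylase, 1.23, -0.17, -0.75 and -0.63. BDH2, a cytosolic dehydrogenase, had a mean of 0.17 ± 0.86 (SD, n = 4 pairs).

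**Figure D5:**
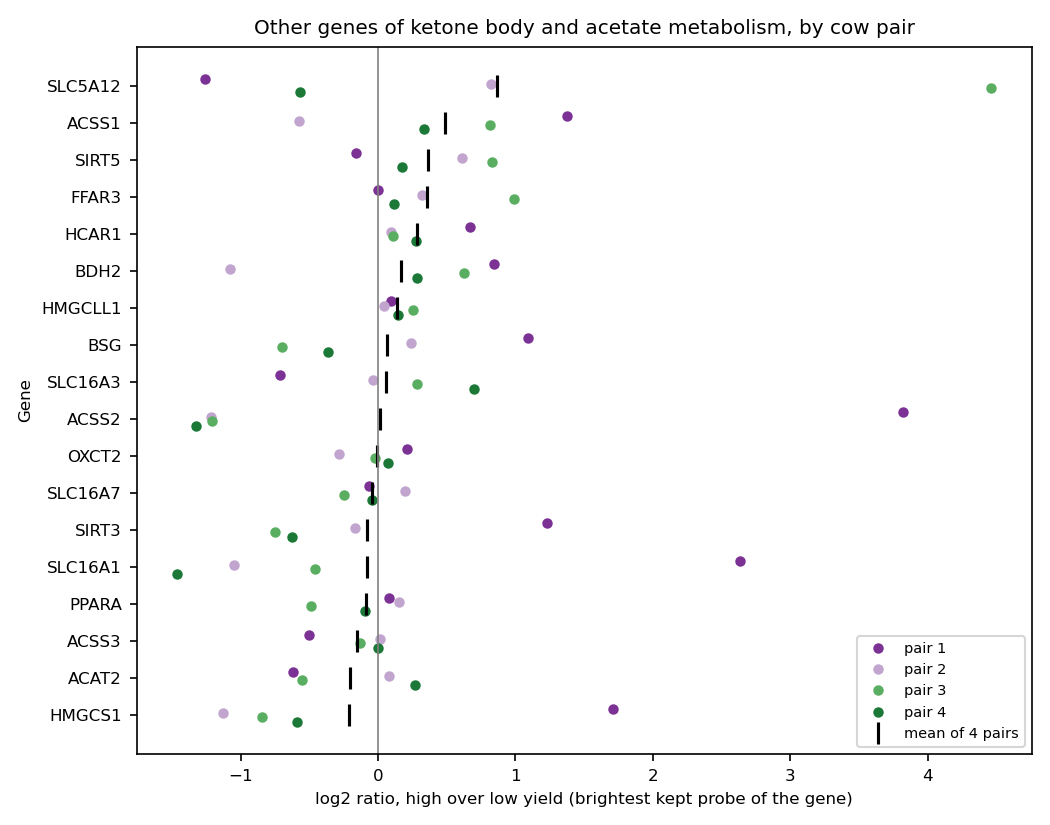
Log2 ratio of high over low yield (x axis) in each cow pair for 18 tested genes of the ketone pathway list (y axis), sorted by the mean of the 4 pairs, which is the black bar. ACSS2 and SLC16A1 lie at 3.82 and 2.63 in pair 1 and below 0 in the others, while all 4 points of HCAR1 lie above 0.

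Lists of neighbouring pathways gave the setting. Of 20 citric acid cycle genes tested, 15 had a mean below 0 and 5 above, with a median of -0.16, and pair medians of 0.40, -0.18, -0.45 and -0.40. SUCLA2, a subunit of the succinyl-CoA synthetase, which like OXCT1 acts on succinyl-CoA, was lower in 4 of 4 pairs at -0.51 ± 0.22 (SD, n = 4 pairs, limma adjusted p = 0.730). DLST, a subunit of the oxoglutarate dehydrogenase complex, had a mean of -0.46, and of -0.78 without pair 1. Of 20 genes of fatty acid oxidation, 15 had a mean above 0, with a median of 0.09. The pair medians were 0.49, -0.02, -0.09 and -0.04, and without pair 1 the list's median was -0.11. The carnitine carrier SLC25A20 was higher in 4 of 4 pairs at 0.34, and the transferase CPT2 was lower in 4 of 4 at -0.15. The largest means there were 0.90 for CPT1B, 0.40 for ACADS and 0.37 for ACSL1. CPT1B had 3.07 in pair 3 and a mean of 0.18 without it, and ACSL1 had 3.05 in pair 1 and a mean of -0.53 without it. CPT2 had 1 other kept probe with a mean of the opposite sign, and CPT1B and ACSL1 had 2 each.

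Of 15 genes of ketogenic and branched amino acid breakdown, 7 had a mean above 0 and 8 below, and 0 had the same sign in 4 of 4 pairs. The list's median was -0.01, and -0.28 without pair 1. TAT, FAH and ACADSB had the largest means, -0.61, 0.46 and -0.46. FAH had 3.82 in pair 1 and a mean of -0.65 without it, ACADSB had -0.10 without pair 1, and TAT had -0.15 without pair 4. FAH also had 1 other kept probe with a mean of the opposite sign. Of 14 genes of milk fat and fatty acid synthesis, 9 had a mean above 0 and 5 below, with a median of 0.07. The pair medians were 0.77, -0.36, -0.36 and -0.46, and without pair 1 the list's median was -0.47. The citrate carrier SLC25A1 (0.36) and MCAT (0.29), of mitochondrial fatty acid synthesis, were higher in 4 of 4 pairs and the elongase ELOVL6 (-0.42) lower, though each of the 3 had 1 other kept probe with a mean of the opposite sign. BTN1A1, of the milk fat globule membrane, had a ratio of 7.47 in pair 1 and between -1.34 and -0.59 in the others, and LPL and FABP3 also had their large positive ratios in pair 1, at 5.49 and 7.53. Without pair 1 the means of BTN1A1, LPL and FABP3 were -0.85, -2.78 and -1.67, and that of ELOVL6 was -0.20. The mean of LPL without pair 3 was 0.10. None of the genes of these 4 lists passed the adjusted limma test.

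The genes whose level was most like that of a member over the 8 cows were ranked by Pearson's r among 12607 other genes, as a description. Each gene was read at its brightest kept probe, so the ranking belongs to that probe. The other member probe correlated with the probe read at 0.856 for OXCT1 and 0.754 for ACAT1, below every gene listed for them. For BDH1 they were TMEM179B (0.984), ATP13A4 (0.982), PTHLH (0.982), MUC15 (0.982) and PHYHIPL (0.981), and without the low-yield cow of pair 1 these values lay between 0.948 and 0.963. PTHLH encodes the parathyroid hormone-related protein, which the lactating gland secretes. For OXCT1 they were SDHB (0.981), SLC5A5 (0.968), CES2 (0.963), MAP3K13 (0.956) and OR9Q6 (0.947). SDHB is a subunit of succinate dehydrogenase and SLC5A5 the iodide carrier of the gland. For AACS they were LPAR2 (0.956), SH3BP4 (0.904), IRX5 (0.893), GBF1 (0.892) and SEC31A (0.891), the last of these a coat protein of vesicles leaving the endoplasmic reticulum. For ACAT1 they were WNT11 (0.960), TMEM87A (0.934), IQCB1 (0.931), C2CD5 (0.922) and CEP290 (0.920). Some of these genes had low levels over the 8 cows, and r does not show how much a gene varied. LPAR2 lay between 6.71 and 7.10, WNT11 between 6.15 and 6.69, SLC5A5 between 6.49 and 7.42 and OR9Q6 between 5.82 and 7.58. These cows share arrays in pairs, and the highest of 12607 values is high by selection.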

How the data were processed

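The deposited scanner files hold intensity values (spot mean and local background median in each dye) that came, per the file headers, from the software Feature Extraction 10.10.1.1. A table of normalised values was deposited by the authors too. Set against the scanner ratios, its deposited values proved to be log2 ratios of high over low yield, and how they were made is not given in the sources used here. Array 1 of pairs 2 and 3 is strongly shrunken in it (slopes of 0.0972 and 0.0869). These arrays also correlated only weakly with the scanner ratios, at r = 0.355 and 0.373, against 0.860 to 0.947 for the other arrays. This limits the values taken from that table.

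Ratios were computed with limma 3.58.1 in R 4.3.3 (names and plots with Python 3.11.15). Background was corrected with normexp, its noise taken from 153 negative control spots, with an offset of 50. Within-array loess followed (span 0.3, controls at weight 0), outlier spots (6 to 118 per array) were dropped, and spots of a probe were averaged. Ratios were oriented as high over low yield and the dye-swapped arrays of the same RNA extracts averaged, so n = 4 pairs. A probe was kept if well above background in at least 6 of 8 channels of either yield group, and a gene was read at its kept probe of highest mean level. Names came from RefSeq assembly ARS-UCD2.0. Means were tested against 0 (lmFit, eBayes, two-sided), and p-values adjusted over all kept probes by Benjamini-Hochberg at 0.05. The functions were tested on simulated data. Array number limits the precision.

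The members and lists were chosen with earlier results of these data known. Named are every member probe, list genes of 1 sign in 4 of 4 pairs, the 3 largest means per list, and the 5 genes most like each member. Some genes that this rule names are not reported here. The labels put both cows of a pair on the same arrays, which gives the pairing. Alternatives covered background, offset, normalisation, filter, slide, pairing, dye, the authors' values, the probe of a gene and each pair left out.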

Additional observations from a re-analysis of the deposited data

Results flagged for a closer look

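In the low-yield cows the level of BDH1 A_73_P050306 in the cow of pair 1 lay far below the other 3, with the gap to its nearest neighbour taking 0.883 of the group's range, above Dixon's 95% critical value for 4 samples. The same cow stood out at the BDH1 probe outside the rule, A_73_121222, with 0.863. Among 27 groups checked, 2 were marked, and chance marks about 1 in 20. Its BDH1 level was 6.01 against 9.85 to 10.36, and its summed secretory marker level 15.49 against 20.47 to 20.73. Both BDH1 probes read the same RNA extract, so they are not separate samples.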

How the results depend on the processing

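The number of member probes past the adjusted limma test was 0 for yield under every alternative run, the unpaired fit without the block of pairs included. It was also 0 for the lactation difference under its alternatives, which did not include the unpaired fits or the slide term. Over the 7 member probes, 201 values were recomputed, of which 176 kept their sign and their side of the threshold and 25 changed sign. All values here are log2. The yield mean of BDH1 A_73_P050306 became 0.087 with saddle-point normexp, 0.082 with scanner processed signals, 0.200 in the authors' deposited table, 0.037 with an offset of 20 and 0.034 with the high-yield cow in Cy3 only; that of A_73_121222 became 0.164, 0.173, 0.301, 0.021 and 0.454. In the authors' deposited table OXCT1 A_73_P042801 was at 0.004. With the high-yield cow in Cy5 only, ACAT1 A_73_P299446, ACAT1 A_73_P049386 and OXCT1 A_73_P042801 were at 0.170, 0.091 and 0.071. With it in Cy3 only, the lactation differences of AACS A_73_P376626 and OXCT1 A_73_P167292 were 0.088 and 0.151. In an unpaired fit that left out only the low-yield cow of pair 1, chosen after seeing the data, OXCT1 A_73_P167292 was at -0.135 and ACAT1 A_73_105208 at 0.039.

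Leaving out each pair in turn, yield means ranged from -1.423 to 0.706 at BDH1 A_73_P050306, -1.596 to 0.762 at A_73_121222, -0.205 to 0.566 at OXCT1 A_73_P167292, -0.615 to 0.175 at OXCT1 A_73_P042801 and -0.218 to 0.020 at ACAT1 A_73_P049386. Lactation differences ranged from -0.546 to 0.294 and -1.097 to 0.388 at AACS A_73_P376626 and A_73_100667, -1.636 to 0.679 and -1.774 to 0.320 at OXCT1 A_73_P167292 and A_73_P042801, and -0.142 to 0.339 at ACAT1 A_73_105208. Without pair 2, pair 1 was the lone pair of lactation II, so only the size of the lactation difference is given. It was -5.85 at BDH1 A_73_P050306 and -6.58 at BDH1 A_73_121222, a probe outside the rule. The median of the ketone pathway list ranged from -0.037 to 0.202. The span of AACS A_73_P376626 over cows was 3.433 with scanner processed signals against 1.577, and this probe was dim. The causes were not tested.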
